A study of Caenorhabditis elegans with 12 samples.

Results

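The genes described here encode prolyl isomerases and the folding enzymes of the endoplasmic reticulum (ER). They were taken by name from a table of 19089 genes as all 16 listed genes of the cyclophilin series *cyn*, all 8 of the FK506-binding protein series *fkb*, all 4 of the protein disulfide isomerase series *pdi*, and 4 single genes, among them *ero-1*, *crt-1* and *cnx-1*, which gives 32 genes. RNA was sequenced from pools of whole *C. elegans* of strain CL2006, whose body wall muscles express human Aβ from the *unc-54* promoter, kept at 20°C and harvested on day 6 of adulthood. ABPS worms were raised over 2 generations on Aβ RNAi bacteria, which lower Aβ, and received the 5MER peptide daily from day 1 of adulthood, while AB0S worms were raised on the same bacteria and received M9 buffer. EVPS worms (peptide) and EV0S worms (buffer) were grown on bacteria with the empty vector, which leave Aβ at its high level. Each group had 3 libraries from independent repeats, and all 4 groups carry the Aβ transgene, although the labels call the genotype of the empty vector groups WT.

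A peptide bond that precedes proline switches slowly between its *cis* and *trans* forms, and prolyl isomerases speed up this step of protein folding. Cyclophilins, which bind cyclosporin, and FK506-binding proteins are among the known families. In the ER, protein disulfide isomerases form and reshuffle disulfide bonds, ERO-1 reoxidizes them, and calreticulin (CRT-1) and calnexin (CNX-1) bind newly made glycoproteins. In nematodes, ER prolyl isomerases and disulfide isomerases are known for their part in making the collagens of the cuticle, and PDI-2 is also the beta subunit of the collagen prolyl 4-hydroxylase.

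The values are read counts per gene that the authors divided by size factors and then corrected for the 3 repeats, and they are called normalized values below. The library sums of these values lay between 24082771 and 29142842, which are not sequencing depths, and the depth is unknown. EV0S repeat 3 stood apart from the other EV0S libraries on the main axis of a principal component analysis (54.5% of the variance). Its score was 25.05, against -36.77 and -33.94 for EV0S repeats 1 and 2. ABPS repeat 2 also stood apart from its group, with a score of 26.29 against -3.97 and -24.19 for ABPS repeats 1 and 3. In 25 of the 32 genes, EV0S repeat 3 had the lowest value of the 3 EV0S libraries. It was the lowest of all 12 libraries for 13. The comparisons that rest on EV0S were therefore also made without it. Because this library was low in most of these genes, leaving it out raises their EV0S means. Calls in those fits are thus partly set by this choice and are no separate support. Groups were compared with limma on log2(value + 1), and a gene is said to rise or fall where its Benjamini-Hochberg adjusted p over all 19089 genes was below 0.1. Every marker chosen for body wall muscle, intestine, hypodermis, neurons and oocytes was expressed (lowest mean 111). In whole worms, fewer cells of a type and less RNA per cell cannot be told apart.

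All 32 genes were expressed, with a mean of at least 10 in every case and no value at or below 0. Per kilobase of exon, the mean normalized value over the 12 libraries covered a 460-fold range. The single-domain cyclophilin gene *cyn-7* had the highest level with 57628 per kilobase, followed by *crt-1* with 26709, and *cyn-17*, a cyclophilin gene, had the lowest with 125. The ER folding enzymes other than *ero-1* lay in the upper part of this order, together with *cyn-1*, *cyn-3*, *cyn-5*, *cyn-7*, *fkb-1*, *fkb-2* and *fkb-6*, while *fkb-4*, *fkb-7*, *fkb-8*, *cyn-2* and *cyn-17* lay at its lower end.

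**Figure D1:**
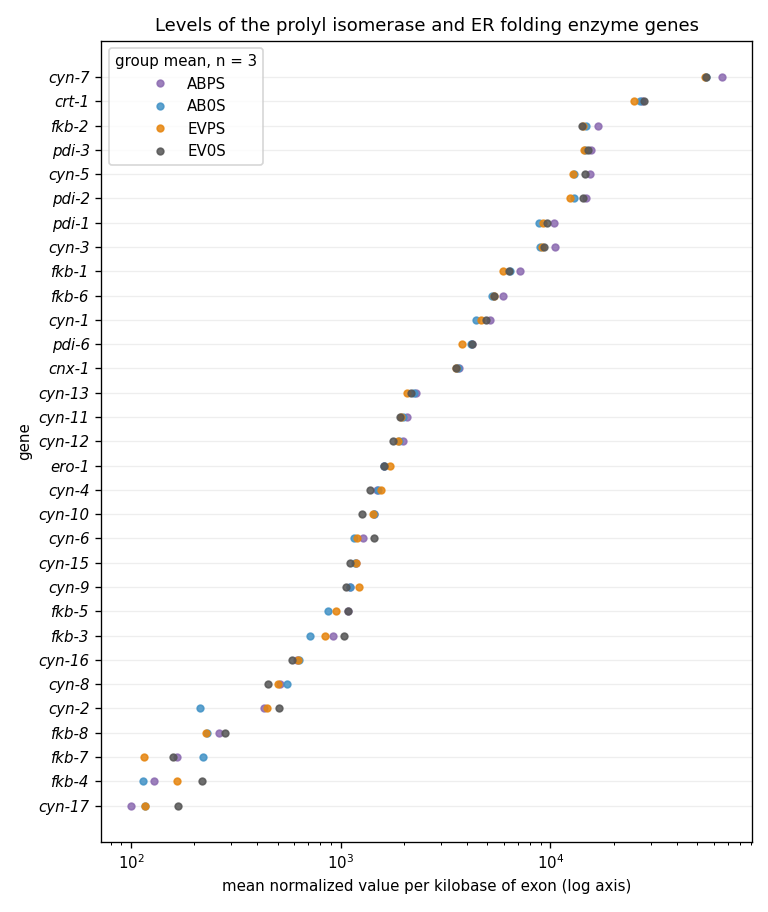
Mean normalized value per kilobase of exon of 31 of the 32 genes (x axis, log scale) in the 4 groups (points, mean of 3 libraries). The 4 points of a gene lie close together for most genes, and they spread most for *cyn-2*, *fkb-4*, *fkb-7* and *cyn-17* at the lower end.

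Most of these genes kept a steady level. The coefficient of variation over the 12 libraries had a median of 8.98% for the 32 genes, against 14.3% for all genes with a mean of at least 10. No set of genes matched for level was compared, and the lowest mean of the 32 genes was 161 (*fkb-4*). The coefficient was below 10% for 21 genes, and it was lowest for *ero-1*, the ER oxidase, at 3.36%. *ero-1* had 2853, 2887 and 2814 in ABPS, 2952, 2860.2 and 2805 in AB0S, 3015, 3128 and 2998 in EVPS and 2842, 2865 and 2851 in EV0S worms. These 12 values lay within 1.12 times of each other. Only 4 genes had a coefficient above 20%, namely *cyn-2* (40.2%), *fkb-7* (32.5%), *fkb-4* (29.0%) and *cyn-17* (24.6%), which are also among the genes with the lowest levels per exon length.

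In the genome (WBcel235, positions from the Ensembl annotation), 8 of the genes lie on chromosome I, 5 on II, 5 on III, 3 on IV, 8 on V and 3 on X. Neighbouring pairs are *cyn-9* and *pdi-1* on chromosome III, which are on the same strand with 98 bases between them, and *fkb-8* and *fkb-2* on chromosome I, on the same strand with 590 bases between them. *cyn-7* and *cyn-3* lie 2548 bases apart on opposite strands of chromosome V. Exons of 11 of the genes overlap another gene, by at most 120 bases, 9 of them on the opposite strand. Whether reads were counted by strand is not stated, so small amounts of signal at these genes are uncertain, as is the split of reads between the similar genes *cyn-1*, *cyn-2*, *cyn-3* and *cyn-7*.

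**Figure D2:**
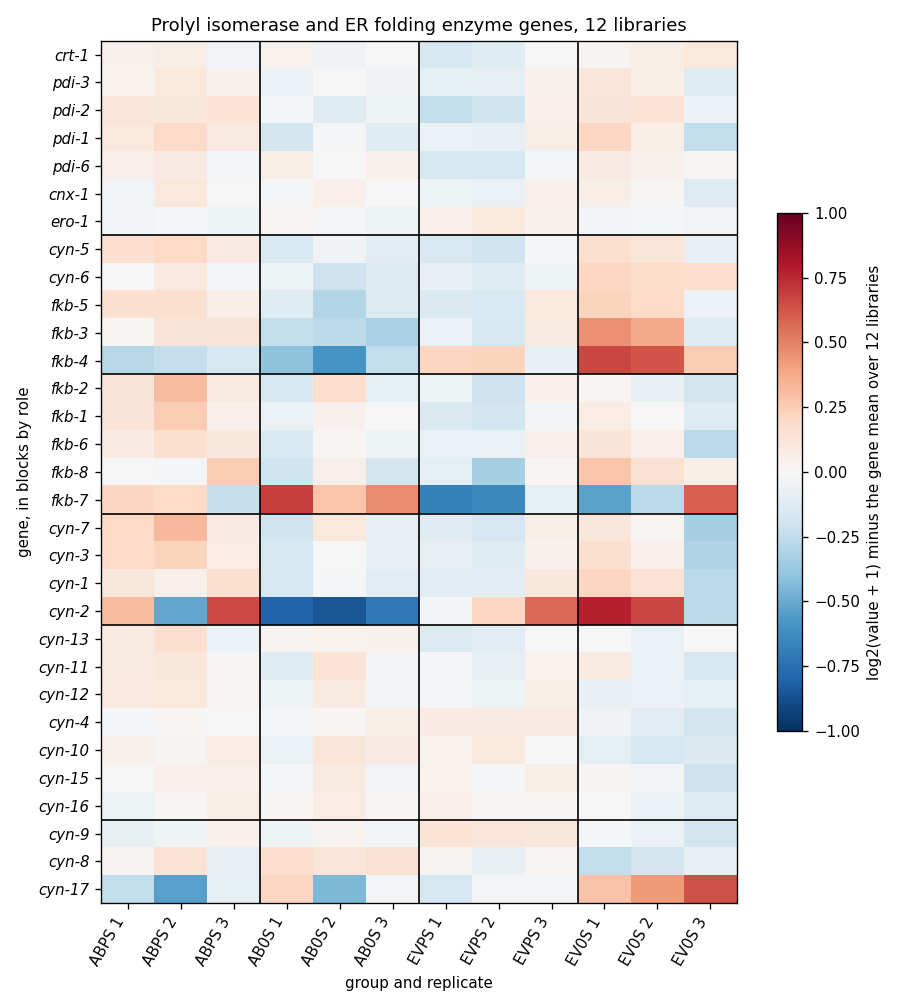
Normalized values of 31 of the 32 genes (rows, in blocks by role) in the 12 libraries (columns), as log2(value + 1) minus the mean of the gene over all libraries. Red is above and blue below the gene's mean. The second block, the secretory pathway isomerases, is blue in the AB0S and mostly red in the EV0S libraries, and *cyn-2* and *fkb-7* show the widest colours.

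The first question was how the peptide changed these genes at high Aβ, in EVPS against EV0S worms. Of the 32 genes, *cyn-4* rose and *cyn-6* fell (limma, adjusted p = 0.094 and 0.064), which is 6.25% of them beside 7.33% of all genes called in this comparison (5.51% higher and 1.82% lower). The median log2 fold change was -0.06 for the 32 genes and -0.05 for all genes, and 11 of the 32 were above 0. The 3 EVPS libraries did not overlap the 3 EV0S libraries in 7 genes that were higher and 6 that were lower, where 14.9% and 12.4% of all genes were higher and lower in this way. These shares of calls are near those of genes in general. Leaving out EV0S repeat 1 or 2 or EVPS repeat 1 or 2 left 0 of the 32 genes and 0 of all genes called, and leaving out EVPS repeat 3 left 1 of the 32 and 684 of all genes, where 1399 of all genes were called with every library.

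*cyn-6* (chromosome III, 773414 to 774159) encodes a cyclophilin of the secretory type, related to mammalian cyclophilin B. Its normalized value was 881, 944 and 872 in ABPS, 855, 764 and 803 in AB0S, 840.3, 813 and 857 in EVPS and 1021, 1004 and 998 in EV0S worms. All 3 EV0S libraries lay above the 9 others, EV0S repeat 3 included. The mean was 836 ± 22.2 in EVPS and 1008 ± 11.6 in EV0S worms (SD, n = 3), a log2 fold change of -0.27 (SE 0.064). Without EV0S repeat 3 it was also -0.27, with a limma adjusted p of 0.049, and over all alternatives this adjusted p lay between 0.019 and 0.311.

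*cyn-4* (chromosome II, 10870779 to 10872611) encodes a nuclear cyclophilin with a U-box, a domain found in ubiquitin ligases, and is also known as *mog-6*, a gene of the switch from sperm to oocytes in the germ line. It had 2392, 2426 and 2420.0 in ABPS, 2384, 2446 and 2514 in AB0S, 2545, 2543 and 2550.2 in EVPS and 2352, 2242 and 2117 in EV0S worms. The EVPS libraries were the highest of all groups and nearly equal, and the EV0S libraries were the lowest. The means were 2546 ± 3.68 in EVPS and 2237 ± 117 in EV0S worms (SD, n = 3), a log2 fold change of 0.19 (SE 0.054). Without EV0S repeat 3 the log2 fold change was 0.14 and the call was lost (limma adjusted p = 0.124, range over the alternatives 0.034 to 0.336). Exons of *cyn-4* overlap 49 bases of *cap-2* on the opposite strand.

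*cyn-9* and *cyn-10* came next among the genes with higher values. *cyn-9* encodes a larger cyclophilin. It had 1076, 1102 and 1168 in ABPS, 1098, 1159 and 1113 in AB0S, 1249.6, 1237 and 1228 in EVPS and 1127, 1091 and 996 in EV0S worms. All EVPS libraries exceeded the other 9, with a log2 fold change of 0.21 over EV0S (SE 0.064, limma adjusted p = 0.108). *cyn-10*, whose human relative is a spliceosome-associated cyclophilin, had 963, 951 and 979.8 in ABPS, 891, 1014 and 989.5 in AB0S, 954, 1003 and 933 in EVPS and 869.6, 829 and 842 in EV0S worms. The EV0S libraries were the 3 lowest, and the log2 fold change between EVPS and EV0S was 0.19 (SE 0.065, limma adjusted p = 0.151). Neither gene passed the threshold here, and without EV0S repeat 3 the log2 fold changes were 0.15 for *cyn-9* and 0.18 for *cyn-10* (limma adjusted p = 0.168 and 0.166). *cyn-10* shares 120 exon bases with *asm-1* on the opposite strand.

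*cyn-17* (chromosome V, 5799673 to 5805666), the gene with the lowest level, had 193, 157 and 214 in ABPS, 266, 168 and 227 in AB0S, 204, 228 and 227 in EVPS and 279.8, 308 and 357 in EV0S worms. The EV0S libraries were above all others. Unlike most of the 32 genes, its value in EV0S repeat 3 was the highest of that group. Its log2 fold change between EVPS and EV0S was -0.51 (SE 0.154), just outside the threshold with a limma adjusted p of 0.103, which lay between 0.083 and 0.386 over the alternatives. It was -0.47 without EV0S repeat 3 (limma adjusted p = 0.124). The study, which tested read counts with DESeq2 at the same threshold, reported *cyn-17* as reduced by the peptide.

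**Figure D3:**
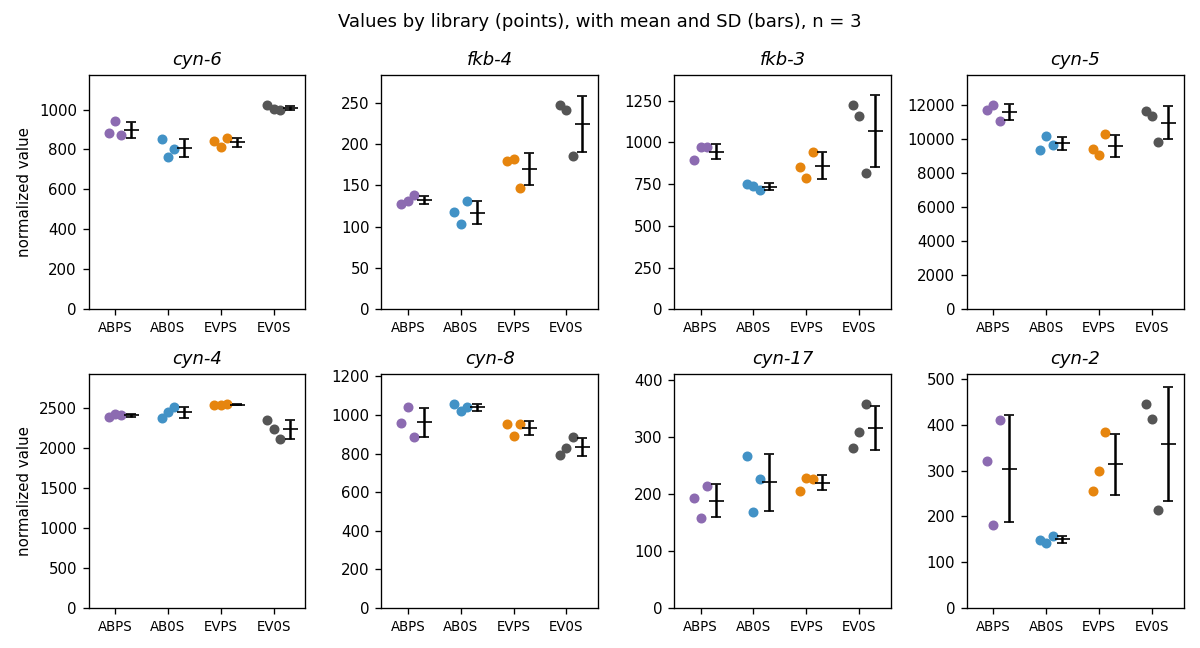
Normalized values (y axis, from 0) of 8 of the genes in the 4 groups. Points are libraries, and bars give the mean and SD of 3 libraries. The EV0S libraries of *cyn-6* and *cyn-17* lie above all others, those of *cyn-4* lie below all others, and in *fkb-3*, *fkb-4*, *cyn-5* and *cyn-2* EV0S repeat 3 lies apart from the other EV0S libraries.

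Grouped by role, the 5 secretory pathway isomerases, *cyn-5* and *cyn-6* of the cyclophilin B type and the ER FK506-binding proteins *fkb-3*, *fkb-4* and *fkb-5*, had negative log2 fold changes between EVPS and EV0S in all 5 cases, between -0.40 and -0.18 with a median of -0.27, and 1 of them passed. The 7 multidomain and spliceosomal cyclophilins (*cyn-4*, *cyn-10*, *cyn-11*, *cyn-12*, *cyn-13*, *cyn-15* and *cyn-16*) had positive ones in 6 cases, with a median of 0.09, and 1 passed. Among the 7 ER folding enzymes (*pdi-1*, *pdi-2*, *pdi-3*, *pdi-6*, *ero-1*, *crt-1* and *cnx-1*), 0 passed by limma, 1 had an unadjusted p below 0.05 (19.4% of all genes did), and the median was -0.06. The remaining 5 FK506-binding proteins, taken as 1 block whatever their compartment, had a median of -0.10 and the 4 single-domain cyclophilins one of -0.04, with 0 passing in either block (1 and 0 at an unadjusted p below 0.05). The sign of each of these medians was the same after rescaling by TMM factors or quantile normalization. These classes were drawn with earlier results of these data known, so signs shared within a class are no separate support. The secretory block may not hold every isomerase of that pathway, so its values describe these 5 genes and not the compartment.

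Without EV0S repeat 3, 9 of the 32 genes passed between EVPS and EV0S, and all 9 fell, while 13.8% of all genes passed (6.61% higher and 7.18% lower). They were *pdi-2*, *pdi-6*, *cyn-1*, *fkb-8* and all 5 secretory pathway isomerases. The log2 fold changes of the isomerases were then between -0.53 for *fkb-4* and -0.27 for *cyn-5*. The median log2 fold change was then -0.14 for the 32 genes and -0.05 for all genes. By role, it was -0.30 for the secretory isomerases, 0.05 for the multidomain and spliceosomal cyclophilins, -0.15 for the ER folding enzymes, -0.13 for the other FK506-binding proteins and -0.20 for the single-domain cyclophilins. The median of the 32 genes depended on the library left out. It was 0.06 without EV0S repeat 1 and -0.03 without EV0S repeat 2. Without EVPS repeat 1, 2 or 3 it was -0.010, -0.004 and -0.14.

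The second question was how RNAi against Aβ changed the genes in worms without the peptide, in AB0S against EV0S worms. This comparison shares the EV0S libraries with the one above. *cyn-8* rose, and *fkb-4*, *fkb-3*, *cyn-6*, *cyn-2* and *cyn-17* fell, which is 18.8% of the 32 genes beside 11.1% of all genes (2.82% higher and 8.26% lower). The median log2 fold change was -0.02 for the 32 genes and 0.03 for all genes, with 15 of the 32 above 0. The 3 AB0S libraries did not overlap the 3 EV0S libraries in 6 genes that were higher and 7 that were lower, where 12.9% and 14.1% of all genes did. Over all genes, 2114 were called. Leaving out EV0S repeat 1 or 2 left 0 of the 32 genes called, with 15 and 10 of all genes. Leaving out AB0S repeat 1 left 3 of the 32 and 173 of all genes, and leaving out AB0S repeat 2 or 3 left 1 of the 32, with 209 and 247 of all genes.

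*fkb-4* (chromosome V, 12785153 to 12787126) had 128, 131 and 138 in ABPS, 117, 103 and 131 in AB0S, 179.7, 181 and 147 in EVPS and 247, 241 and 185 in EV0S worms. Both RNAi groups lay below all empty vector libraries. The mean in AB0S was 117 ± 13.9 and that in EV0S 224 ± 34.1 (SD, n = 3), with a log2 fold change of -0.93 (SE 0.150, limma adjusted p = 0.022, range over the alternatives 0.00088 to 0.144). FKB-4 is known in *C. elegans* to act with FKB-5 in the ER on cuticle collagens.

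*fkb-3* (chromosome V, 7225223 to 7226320), which encodes another ER FK506-binding protein, had 894, 969 and 970.4 in ABPS, 750.4, 740.0 and 711 in AB0S, 849, 785 and 944 in EVPS and 1221, 1158 and 818 in EV0S worms. The AB0S libraries were the 3 lowest of the 12. The log2 fold change between AB0S and EV0S was -0.52 (SE 0.134, limma adjusted p = 0.062). Its exons overlap 111 bases of a gene on the opposite strand. *cyn-6*, whose values are given above, averaged 807 ± 45.7 in AB0S and 1008 ± 11.6 in EV0S worms (SD, n = 3), a log2 fold change of -0.32 (SE 0.064, limma adjusted p = 0.034, range 0.0084 to 0.190).

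The other secretory isomerases were lower in AB0S worms without passing. *fkb-5* had 1145, 1142 and 1067 in ABPS, 942, 836 and 930.1 in AB0S, 923, 921 and 1099 in EVPS and 1194, 1167 and 979.9 in EV0S worms. The AB0S values were all below the EV0S values (log2 fold change -0.30, SE 0.099, limma adjusted p = 0.110). *cyn-5* had 11737, 11989 and 11063 in ABPS, 9376, 10189 and 9681 in AB0S, 9397, 9083 and 10315 in EVPS and 11663, 11372 and 9850.3 in EV0S worms. Here EV0S repeat 3 lay within the range of the AB0S libraries, and the log2 fold change was -0.17 (SE 0.081, limma adjusted p = 0.260). Over the 5 secretory isomerases, 3 fell, 0 rose, and the median log2 fold change of AB0S over EV0S was -0.32, also negative after TMM or quantile rescaling.

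The summed value of 7 hypodermis and cuticle genes lay between 31786 and 42775 in ABPS, 24717 and 28636 in AB0S, 30947 and 40667 in EVPS and 33796 and 50601 in EV0S libraries. It was lowest in the AB0S group, 2 of the 7 genes (*rol-6* and *dpy-13*) fell in AB0S against EV0S, and the lowest mean among the 7 was 567, so none was near 0. The study lists CL2006 as carrying the plasmid pRF4 besides the Aβ transgene. Whether *rol-6* reads came in part from introduced copies of that gene was not tested. Of the 7 hypodermis and cuticle genes, 1 rose and 3 fell without EV0S repeat 3. Body wall muscle moved in the same libraries. The summed value of 8 muscle genes was 136166, 120687 and 162071 in ABPS, 102513, 102474 and 109255 in AB0S, 144582, 149838 and 148386 in EVPS and 178609, 176012 and 103728 in EV0S worms. Its 3 AB0S values and EV0S repeat 3 were the lowest, 1 of the 8 genes fell in AB0S against EV0S worms and 0 rose, and the lowest mean of the 8 was 127. Of these muscle genes, 1 rose and 7 fell without EV0S repeat 3. The part of these differences in the levels of the secretory isomerases was not tested.

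*cyn-8* (chromosome X, 8911293 to 8914261), a larger cyclophilin gene, had 959, 1040.0 and 888 in ABPS, 1056, 1019 and 1042 in AB0S, 955, 893 and 953 in EVPS and 793, 827 and 884 in EV0S worms. Every AB0S library was above every EV0S library, with means of 1039 ± 18.4 in AB0S and 835 ± 46.2 in EV0S worms (SD, n = 3). The log2 fold change was 0.32 (SE 0.075, limma adjusted p = 0.051). *cyn-17* averaged 220.1 ± 49.2 in AB0S and 315 ± 39.1 in EV0S worms (SD, n = 3), a log2 fold change of -0.53 (SE 0.154, limma adjusted p = 0.079).

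*cyn-2* (chromosome III, 13692668 to 13693811), a single-domain cyclophilin of the cyclophilin A type, varied most. It had 322, 181 and 411 in ABPS, 149, 143 and 158 in AB0S, 255, 300.2 and 385 in EVPS and 445, 413 and 215 in EV0S worms. All 3 AB0S libraries were low, and so were ABPS repeat 2 and EV0S repeat 3. The mean in AB0S was 149.8 ± 7.36 and that in EV0S 357 ± 125 (SD, n = 3), with a log2 fold change of -1.18 (SE 0.329, limma adjusted p = 0.072). Its exons share 16 bases with *cul-2* on the same strand.

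Sperm genes moved in the same libraries. The summed value of 36 sperm genes (the *msp* genes, *spe-9*, *spe-11*, *gsp-3* and *gsp-4*) was 14441, 6774 and 18949 in ABPS, 5239, 5272 and 5799.5 in AB0S, 11418, 12555 and 16754 in EVPS and 18532, 19057 and 7219 in EV0S worms. The 5 libraries with the lowest *cyn-2* are the 5 with the lowest sperm sum, and they are also the 5 with the lowest sum of the body wall muscle genes given above. Between AB0S and EV0S, 18 of the 36 sperm genes fell and 0 rose, with a median log2 fold change of -1.32, and 1 of the 36 had a mean below 10. When EV0S repeat 3 was left out, 34 of the 36 fell with a median of -1.95, and *cyn-2* had a log2 fold change of -1.66 (limma adjusted p = 0.00067). *cyn-2* was set beside the sperm and muscle genes after its values were seen, and their part in its difference was not tested.

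**Figure D4:**
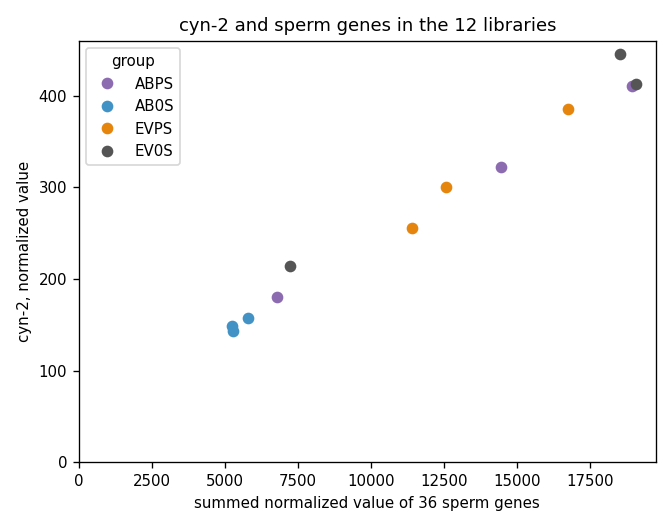
Normalized value of *cyn-2* (y axis) against the summed normalized value of 36 sperm genes (x axis) in the 12 libraries, coloured by group, both axes from 0. The 3 AB0S libraries, ABPS repeat 2 and EV0S repeat 3 lie together at the lower left.

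The ER folding enzymes showed little difference between AB0S and EV0S worms. None of the 7 passed by limma and 0 had an unadjusted p below 0.05 (22.5% of all genes did), with log2 fold changes between -0.13 for *pdi-2* and 0.03 for *cnx-1*. The 95% confidence interval of *crt-1*, the calreticulin gene, was -0.23 to 0.10 on the log2 scale. All 7 multidomain and spliceosomal cyclophilins had log2 fold changes above 0, with a median of 0.09, and 0 of them passed (2 at an unadjusted p below 0.05). The 5 remaining FK506-binding proteins had 0 calls and 0 with an unadjusted p below 0.05. Among them *fkb-7*, which encodes a longer FK506-binding protein, had 273, 271 and 201 in ABPS, 381, 286 and 327 in AB0S, 147, 150.5 and 220.0 in EVPS and 163, 195 and 356 in EV0S worms. It was the gene in which EV0S repeat 3 most exceeded the other EV0S libraries, and its log2 fold change between AB0S and EV0S was 0.55 (SE 0.262, limma adjusted p = 0.250).

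Without EV0S repeat 3, 15 of the 32 genes passed between AB0S and EV0S, 3 higher (*cyn-8*, *cyn-10* and *fkb-7*) and 12 lower, while 34.2% of all genes passed (15.2% higher, and 3625 genes lower). All 6 genes called with every library were among the 15. The 12 lower genes held all 5 secretory isomerases, with log2 fold changes between -1.07 for *fkb-4* and -0.25 for *cyn-5*, and also *pdi-1* and *pdi-2*, *fkb-6* and *fkb-8*, *cyn-1* and *cyn-2*, and *cyn-17*. The median log2 fold change was then -0.06 for the 32 genes and 0.03 for all genes. It was -0.41 for the secretory isomerases, 0.07 for the multidomain and spliceosomal cyclophilins and -0.05 for the ER folding enzymes. Leaving out another single library of these groups gave medians of the 32 genes from -0.05 (AB0S repeat 2) to 0.05 (EV0S repeat 1).

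**Figure D5:**
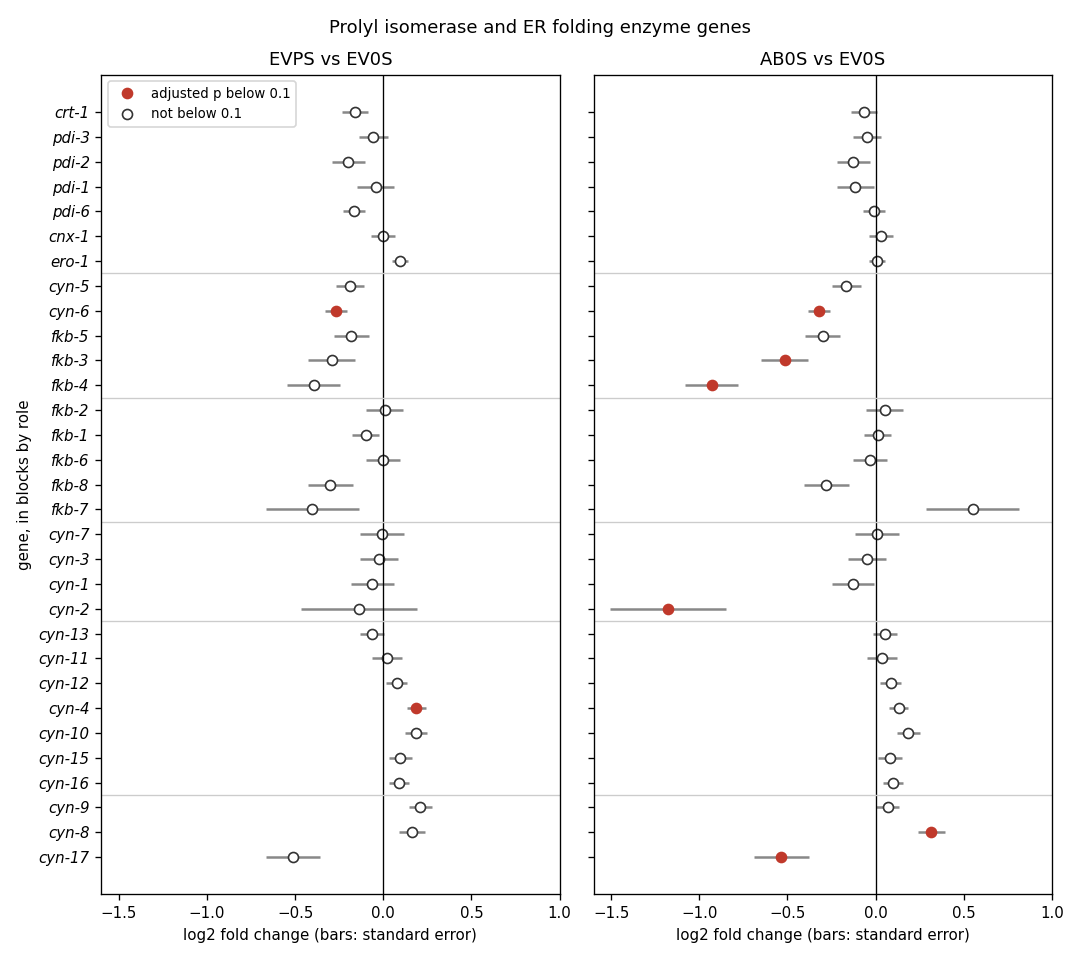
Log2 fold change of 31 of the 32 genes (rows, in blocks by role) between EVPS and EV0S (left) and between AB0S and EV0S (right), which share the EV0S libraries. Bars are standard errors, and filled points have a limma adjusted p below 0.1. The second block, the secretory isomerases, lies left of 0 in both panels.

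The third question was how the peptide changed the genes at low Aβ, in ABPS against AB0S worms. None of the 32 genes passed by limma, and 0.00% of all genes did, with 7 of the 32 genes and 15.9% of all genes at an unadjusted p below 0.05. The median log2 fold change was 0.09 for the 32 genes and -0.02 for all genes, and 25 of the 32 were above 0. The median of the 32 genes was 0.08 with TMM factors and 0.03 with quantile normalization, beside -0.03 for all genes in both. The 3 ABPS libraries lay above the 3 AB0S libraries without overlap in 12 genes and below them in 1, where 14.9% and 14.5% of all genes did. The gene below was *fkb-7* (log2 fold change -0.42).

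The 5 secretory isomerases all had higher means in ABPS than in AB0S worms, with a median log2 fold change of 0.25. The largest were *fkb-3* with 0.36 (SE 0.134), *fkb-5* with 0.31 (SE 0.099) and *cyn-5* with 0.25 (SE 0.081), each without overlap between the groups and with a limma adjusted p of 0.28. *cyn-2* averaged 304 ± 116 in ABPS and 149.8 ± 7.36 in AB0S worms (SD, n = 3; log2 fold change 0.94, limma adjusted p = 0.279). The 4 single-domain cyclophilins had a median of 0.25 and all 4 were above 0. *cyn-7*, the gene with the highest level of the 32, had 41597, 45477 and 38500.1 in ABPS and 31716, 38981 and 34349 in AB0S worms. These groups overlapped, and its adjusted p was 0.340 by limma. The ER folding enzymes had a median of 0.03, which became -0.04 after quantile normalization.

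When only the ABPS and AB0S libraries were fitted, 11 of the 32 genes passed, all of them higher in ABPS worms, while 8.70% of all genes were called higher and 4.01% lower. They were *cyn-1*, *cyn-2*, *cyn-3* and *cyn-7*, *cyn-5*, *fkb-2*, *fkb-3*, *fkb-5* and *fkb-6*, and *pdi-1* and *pdi-2*. The result for this comparison thus depends on which libraries set the spread.

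With the peptide, RNAi against Aβ (ABPS against EVPS) changed 0 of the 32 genes by limma and 0.272% of all genes (0.215% higher and 0.0576% lower), with 7 of the 32 genes and 15.8% of all genes at an unadjusted p below 0.05. The median log2 fold change was 0.13 for the 32 genes and 0.00 for all genes, and 25 of the 32 were above 0. ABPS lay above EVPS without overlap in 11 genes and below it in 4, where 16.2% and 15.1% of all genes did. The smallest p-values were those of *fkb-1*, which encodes a small FK506-binding protein, and of *cyn-5*. *fkb-1* had 3514, 3824 and 3327 in ABPS, 3068, 3309 and 3206 in AB0S, 2905, 2821 and 3146 in EVPS and 3379.5, 3202 and 2927 in EV0S worms. The ABPS libraries exceeded all EVPS libraries (log2 fold change 0.26, SE 0.076, limma adjusted p = 0.193). *cyn-5* had a log2 fold change of 0.27 (SE 0.081, limma adjusted p = 0.195).

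Whether the peptide acted differently at high and at low Aβ was tested as the change in EVPS over EV0S minus the change in ABPS over AB0S. Only *cyn-6* passed, which is 3.12% of the 32 genes beside 2.98% of all genes (2.37% positive and 0.608% negative). Its log2 change with the peptide was -0.27 on the empty vector and 0.16 on Aβ RNAi, and the difference was -0.42 (SE 0.090, limma adjusted p = 0.082). The ABPS libraries of *cyn-6* lay above all AB0S libraries, and the EVPS libraries below all EV0S libraries. Without EV0S repeat 3 the difference was -0.43 (limma adjusted p = 0.0145, range over all alternatives 0.0145 to 0.281). Leaving out repeat 1 or 2 of any group or AB0S repeat 3 left 0 of the 32 genes and 0 of all genes called. Leaving out ABPS repeat 3 left 1 of the 32 and 583 of all genes, and leaving out EVPS repeat 3 left 5 of the 32 and 850 of all genes, where 569 of all genes passed with every library.

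*cyn-5*, the other gene of the cyclophilin B type, had a difference of -0.44 (SE 0.114) and narrowly missed the threshold (limma adjusted p = 0.102). All 5 secretory isomerases had a negative difference with an unadjusted p below 0.05 (18.1% of all genes passed this in either direction). Their median was -0.49, beside -0.18 for the 32 genes and -0.03 for all genes, and its sign was kept after TMM and quantile rescaling. The other FK506-binding proteins had differences between -0.49 (*fkb-8*) and 0.02 (*fkb-7*). Negative differences also occurred outside the 32 genes. *rol-6* and *dpy-13* had -0.69 and -1.21, but they were named because they fell in AB0S worms, which favours negative values. Of the 4 collagen prolyl 4-hydroxylase genes, *dpy-18*, *phy-2* and *phy-3* had -0.37, -0.19 and -0.73, and *phy-4* had 0.48. Over the 32 genes, 19 (59.4%) had a negative log2 fold change with the peptide at high Aβ and a positive one at low Aβ, beside 5151 of all 19089 genes, and 5 (15.6%) had the opposite pair of signs, beside 4341 of all genes. Without EV0S repeat 3, 16 of the 32 genes passed the test of the difference, 1 positive (*cyn-8*) and 15 negative, while 25.7% of all genes did (10.3% positive and 15.4% negative). The 15 held all 5 secretory isomerases and all 4 single-domain cyclophilins.

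The remaining genes had no call in any of these 5 tests with all libraries. Among them *fkb-2*, of the small cytosolic FKBP12 type, had 0.20 between ABPS and AB0S and 0.25 between ABPS and EVPS, with 0.01 between EVPS and EV0S and 0.05 between AB0S and EV0S. *fkb-6*, with repeats that bind Hsp90, had 0.18 between ABPS and AB0S and 0.00 between EVPS and EV0S. *cyn-1* and *cyn-3*, of the cyclophilin A type, had 0.21 and 0.24 between ABPS and AB0S, with limma adjusted p-values of 0.398 and 0.309.

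Other genes of these pathways were read from fixed lists. Of 10 genes of the unfolded protein response and of ER-associated degradation, 2 rose and 0 fell in EVPS against EV0S worms, with a median log2 fold change of 0.15. These were *ire-1*, the ER stress sensor with kinase and RNase activity, and *sel-1*, a part of the ER degradation complex. *ire-1* averaged 5262 ± 253 in EVPS and 4149 ± 203 in EV0S worms (SD, n = 3; log2 fold change 0.34, limma adjusted p = 0.051), and *sel-1* averaged 4674 ± 117 in EVPS and 4122 ± 190 in EV0S worms (SD, n = 3; log2 fold change 0.18, limma adjusted p = 0.085). In AB0S against EV0S worms, *ire-1* (log2 fold change 0.21) and the sensor gene *atf-6* (0.34) rose and 0 of the 10 fell, and between ABPS and AB0S 0 of the 10 passed (0 at an unadjusted p below 0.05). *ire-1* also passed the test of the difference between the peptide's changes (0.40, limma adjusted p = 0.083). When EV0S repeat 3 was left out, *ire-1*, *sel-1* and *atf-6* rose in EVPS against EV0S worms (log2 fold changes 0.31, 0.15 and 0.25) and the median of the 10 was 0.06. In AB0S against EV0S worms, *ire-1* (0.18) and *atf-6* (0.47) rose and *cdc-48.1* and *cdc-48.2* fell. The test of the difference was then passed by *ire-1* (0.37, limma adjusted p = 0.014) and *atf-6* (0.47, limma adjusted p = 0.016).

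The ER chaperone list of 9 genes had 0 calls between EVPS and EV0S (1 at an unadjusted p below 0.05) and a median log2 fold change of -0.04. Its BiP genes *hsp-3* and *hsp-4*, the classic targets of the unfolded protein response, had log2 fold changes of -0.14 and -0.01 there. These were -0.24 and -0.10 without EV0S repeat 3, and *hsp-3* then passed (limma adjusted p = 0.045). Between AB0S and EV0S 1 of the 9 fell, *uggt-2*, a relative of the glycoprotein folding sensor, which averaged 70.5 ± 4.11 in AB0S and 123 ± 19.3 in EV0S worms (SD, n = 3). Of 4 collagen prolyl 4-hydroxylase genes, *dpy-18*, the catalytic partner of PDI-2, fell in AB0S worms (1957 ± 199, against 2448 ± 245 in EV0S worms, SD, n = 3), with a log2 fold change of -0.32 (limma adjusted p = 0.086). With EV0S repeat 3 left out, the log2 fold changes were -1.01 for *uggt-2* and -0.45 for *dpy-18* (limma adjusted p = 0.0051 and 0.0018), and *hsp-4* (-0.29) and the hydroxylase gene *phy-3* also fell in AB0S worms. *dpy-18* then fell in EVPS against EV0S worms as well (-0.38). The 5 oligosaccharyl transferase genes, the 3 calcineurin genes (calcineurin is the phosphatase that cyclophilin and FK506-binding protein bind with their drugs) and 6 genes of Hsp90 and its partners, with which FKB-6 is thought to act, had 0 calls in all 5 tests. In the fit without EV0S repeat 3, *stt-3* of the transferase and *sti-1* of the Hsp90 list fell in AB0S against EV0S worms, and *hsp-90*, *daf-41* and *sti-1* passed the test of the difference with negative values.

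Markers of oocytes and early embryos moved with the peptide at high Aβ. Of 11 such genes, 7 rose and 0 fell between EVPS and EV0S worms, with a median log2 fold change of 0.29, and their summed value lay between 361237 and 394196 in EVPS and between 268921 and 339463 in EV0S libraries, with no gene of the list near 0. Of the 11, 9 rose without EV0S repeat 3, with a median of 0.23. *cyn-4* rose in the same comparison, and the part of these cells in its difference was not tested.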

How the data were processed

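RNA was extracted from pools of whole worms, and poly(A)-selected stranded libraries were sequenced (single end). As stated in the study's methods and processing notes, the authors trimmed the reads (fastx_toolkit, cutadapt 2.10), aligned them to WBcel235 with TopHat 2.1.1, counted them with htseq-count 2.01 and normalized with DESeq2 1.36.0. The deposited values are a score on a linear scale, namely these normalized counts after the authors' batch correction for the 3 repeats, whose method is not given in the sources used here. Of 229068 values, 307 were below 0. They are not whole reads, so a count test was not used and the depth is unknown.

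Negative values were replaced by 0, and log2(value + 1) of all 19089 genes in all 12 libraries was fitted with limma 3.58.1 (R 4.3.3, eBayes with trend), with group and repeat number as terms. Fold changes on this scale understate changes of low genes. P-values were adjusted by Benjamini-Hochberg over all genes, with calls at an adjusted p below 0.1, the threshold of the study. An exact two-sided permutation test of 1 gene in 3 against 3 libraries has a smallest p of 0.1. Repeat numbers were used as a block because the study corrected for its repeats. The script was tested on simulated data for EVPS against EV0S (3 runs per effect size). It recovered 29.2% of genes changed by 0.5 and 63.2% of those changed by 1 on the log2 scale. False calls averaged 6 and 15, so many changes of this size can be missed. Of the 32 genes, 1 is counted throughout but is not reported here by name. Positions and exon lengths came from Ensembl 115. Values in all libraries are given for genes called in any test, for *cyn-17*, which the study names, for the 2 genes with the smallest p in each direction in each test, for *ero-1* and in part for *cyn-7*, both chosen after their values were seen. The genes, their classes and all lists were chosen with earlier results of these data known. Alternatives were a threshold of 0.05, pseudocounts of 0.1 and 5, genes with a mean of at least 1 or 10, no block, only the 2 groups compared, TMM factors (trimmed mean of log ratios, 30% and 5% trimmed), quantile normalization, eBayes without trend or robust, and each library left out. Tables and plots were made with Python 3.11.15, pandas 2.3.3, numpy 2.4.6 and matplotlib 3.10.9.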

Additional observations from a re-analysis of the deposited data

Results flagged for a closer look

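The peptide's change of *cyn-6* differed between worms at high and at low Aβ by -0.42 on the log2 scale (SE 0.090), tested as an interaction in limma with an adjusted p of 0.082. The gene was lower in all 3 EVPS libraries than in all 3 EV0S libraries and higher in all 3 ABPS libraries than in all 3 AB0S libraries. The call was kept in 11 of the alternatives and lost in 11, with a limma adjusted p between 0.014 and 0.281.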

How the results depend on the processing

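With every library and the settings of the report, 2 of the 32 genes were called between EVPS and EV0S, 0 between ABPS and AB0S, 6 between AB0S and EV0S, 0 between ABPS and EVPS and 1 in the test of the difference, beside 1399, 0, 2114, 52 and 569 of all genes. Between EVPS and EV0S the count was 0 at an adjusted p below 0.05, with only the 2 groups compared and without the eBayes trend (4, 0 and 0 of all genes), and 4 with genes of a mean of at least 10 and with TMM factors (1798 and 1880 of all genes). Between AB0S and EV0S it was 2 at an adjusted p below 0.05, with only the 2 groups and without the trend (656, 791 and 1030 of all genes). Between ABPS and AB0S it was 11 with only the 2 groups (2427 of all genes). In the test of the difference it was 0 at an adjusted p below 0.05 and without the trend (0 of all genes in both), 2 with a mean of at least 10 and with robust eBayes (909 and 669 of all genes), 5 with TMM factors (1304) and 3 with quantile normalization (922). The cause of these changes was not tested.

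Leaving out 1 library at a time gave 0 to 9 genes between EVPS and EV0S, 0 to 1 between ABPS and AB0S (*cyn-2*, without ABPS repeat 2), 0 to 15 between AB0S and EV0S, 0 to 3 between ABPS and EVPS (*pdi-2*, *cyn-5* and *fkb-1*, without EVPS repeat 3) and 0 to 16 in the test of the difference. The highest counts of 9, 15 and 16 all came without EV0S repeat 3, where 2633, 6524 and 4908 of all genes were called, and without EV0S repeat 1 or 2 all 3 counts were 0, with at most 15 of all genes called. In the test of the difference, 5 genes and 850 of all genes passed without EVPS repeat 3. The counts of 1 and 3 came with 720 and 478 of all genes.

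Without the replicate block, 6 genes were called between EVPS and EV0S, 0 between ABPS and AB0S, 9 between AB0S and EV0S, 2 between ABPS and EVPS (*cyn-5* and *fkb-1*) and 6 in the test of the difference, beside 2490, 7, 3380, 920 and 1785 of all genes. Libraries with the same repeat number deviated from their group means with a correlation of -0.181 on average across genes, against 0.092 for other pairs of libraries, and the authors' correction for the repeats lowers such correlations itself, so they leave the pairing of the libraries undecided.

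The higher and lower calls among the 32 genes between EVPS and EV0S were 1 and 1, against 0 and 2 with quantile normalization, and between AB0S and EV0S 1 and 5, against 3 and 5 with TMM factors. Over all genes, 538 of 2114 calls between AB0S and EV0S were higher, against 1263 of 2982 with TMM factors. For single named genes, 0 results reversed over the alternatives, 318 stayed on their side of the threshold, 67 lost the call and 26 gained it. The unknown depth, the correction made before deposit and 3 libraries a group limit what can be detected.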
